A study of Rattus norvegicus with 12 samples.

Results

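The Bcl2 locus on rat chromosome 13 was examined by MeDIP-Seq in the epithelial cells and the stromal cells of the ventral prostate. It was taken as every 100 bp window whose start lies from 20 kb before the start to 20 kb after the end of a differential DNA methylation region (DMR) which the study assigned to Bcl2 in stromal cells. This gave 404 of 27820300 windows, chr13:26733401-26773800 of the Rnor_6.0 rat genome, 40.4 kb in all. The DMR itself, chr13:26753401-26753700, covered 3 of these windows. The locus was thus selected on the stromal cell counts of the control and vinclozolin lineages at the DMR, and that comparison is given as a description, with no test. Whether the windows lie over a promoter, an exon or an intron of Bcl2 was not analysed here, because the gene annotation at hand is on another assembly, GRCr8. In that annotation Bcl2 lies on the minus strand, with Phlpp1, a phosphatase gene that acts on AKT, and Kdsr, an enzyme gene of sphingolipid synthesis, as its protein-coding neighbors. No sequence of the locus is given, since no genome of the build of the files was used.

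BCL2 is the founding member of a protein family that controls the mitochondrial route of apoptosis. It sits on the outer mitochondrial membrane and keeps the pore-forming proteins BAX and BAK from releasing cytochrome c, while BH3-only proteins such as BIM and BAD bind it and relieve this block. In the prostate epithelium BCL2 is known from basal cells, which survive androgen withdrawal, and its overproduction is known from androgen-independent prostate cancer. Vinclozolin is a fungicide whose metabolites block the androgen receptor.

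The DNA came from 12 pools, with 3 pools of each lineage and cell type. All rats were outbred Hsd:Sprague Dawley SD males of the F3 generation, 19 to 21 days old and not treated themselves. Their F0 generation ancestors had received daily injections on gestation days 8 to 14, in the vinclozolin lineage of 100 mg/kg/day vinclozolin in dimethyl sulfoxide (DMSO) and in the control lineage of DMSO alone. Each pool combined several rats. The study separated epithelial and stromal cells from the same combined tissue by settling and centrifugation. Pool numbers are those of the sample titles, and the study does not state that they mark its groups of rats. The spread between pools holds that between groups of rats together with that of cell separation, MeDIP, library preparation, sequencing and counting. How pure the cell preparations were could not be checked against marker genes, since the files hold DNA counts.

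MeDIP captures DNA fragments with an antibody against methylated cytosine, so that read numbers over a window rise with both the methylation and the number of methylated CpG sites there. Window counts summed to between 57135700 and 112304623 per pool, and each read added to 1.5 windows on average. The 404 windows held between 945 and 1897 counts per pool, a mean of 2.34 to 4.70 per window, and 19.6% to 42.8% of them held no count in a given pool. Single windows therefore carry large counting error. For this reason counts were also summed over 1 kb bins, 39 of which lie wholly inside the locus, and over the locus as a whole. Levels are given as CPM, the count divided by the summed window counts of the pool and multiplied by 1000000.

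The antibody signal was concentrated in a few kilobases of the locus, at the same places in both cell types and both lineages. The highest 1 kb bin, chr13:26741001-26742000, had its center at -12.05 kb from that of the DMR and held 18.0% to 22.3% of the counts of the locus in every pool. Its level was 3.55 ± 0.230 CPM (SD, n = 3) in control and 3.27 ± 0.144 CPM in vinclozolin lineage epithelial cells, and 3.56 ± 0.336 CPM and 3.11 ± 0.210 CPM in stromal cells. Among all 1 kb bins of the genome its mean level of 3.37 CPM stood at percentile 99.7. Its counts in epithelial cells were 216, 329 and 238 in the 3 control pools and 270, 342 and 255 in the vinclozolin pools. In stromal cells they were 199, 253 and 242 in the control pools and 329, 336 and 241 in the vinclozolin pools. Once scaled to CPM, the pools of the 2 lineages overlapped in each cell type, as did those of the 2 cell types in each lineage. The bins that followed in level were chr13:26743001-26744000 with a mean of 1.27 CPM and chr13:26740001-26741000 with 1.06 CPM, both within a few kilobases of the highest. The 3 windows of the highest mean level, which start at 26741801, 26741901 and 26741501, all lay inside the highest bin and held 464, 433 and 401 counts over the 12 pools.

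**Figure D1:**
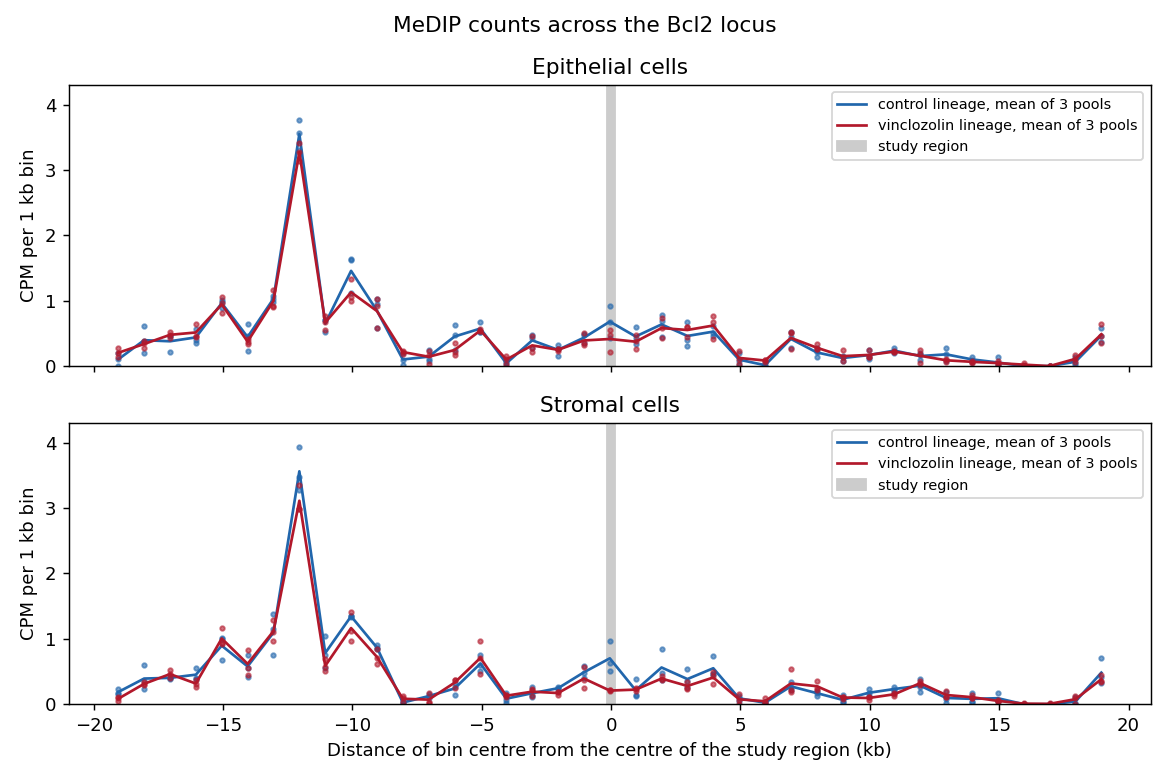
Level in CPM of each 1 kb bin (vertical axis) against its distance in kb from the center of the DMR (horizontal axis), with points for single pools and lines for the mean of 3 pools, in blue for the control and in red for the vinclozolin lineage. The bin at -12.05 kb from the DMR lies between 2.99 and 3.93 CPM in the 12 pools, while the bin of the DMR (gray band) reaches at most 0.963 CPM in any of them.

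Taken over all of its bins, the level of the locus was somewhat above the middle of the genome. The median of its 39 bins was 0.316 CPM against 0.211 CPM over the bins of the genome, and 24 of the 39 lay above the genome median. Summed over all windows, the mean level of the locus was 16.9 CPM, which stood at percentile 67.9 of 68850 stretches of the same length across the genome (median 13.5 CPM) and at 66.9 of the 2821 stretches on chromosome 13. The lowest bins were chr13:26770001-26771000, with 2 counts over the 12 pools, chr13:26769001-26770000 with 9 and chr13:26759001-26760000 with 45. No read fell in any pool on 13 of the 404 windows (3.22%), against 11.1% of windows in the genome. These included a run of 600 bp from 26770401 and a run of 500 bp from 26769701. A count of 0 allows up to 3 counts in a pool, or 0.0267 to 0.0525 CPM by depth, and covers counting error only, so no methylation was detectable there at this depth. A window without reads can also lack CpG sites or be hard to map, and neither was analysed here.

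The profile along the locus was alike in the 4 groups. Over the 39 bins, log2(CPM + 0.1) of the group means correlated with Pearson r between 0.937 and 0.964, and of single pools between 0.843 and 0.936 over all 66 pairs. These correlations are across bins that share their sequence and mappability in all pools, and are a description. The variance between pools was taken over the bins with an expected count of at least 5 in each pool of a group, 33 and 36 bins in the control and vinclozolin lineage epithelial cells and 30 and 33 in the stromal cells, so the groups do not share all bins. It was 1.80 times that of counting independent reads in control and 1.45 times in vinclozolin lineage epithelial cells, and 1.60 and 1.25 times in stromal cells. This allows for reads that add to 2 windows, and not for duplicate reads.

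The DMR was a narrow island of signal. It held 374 counts over the 12 pools in 300 bp, whereas the 400 bp before it held 11 and the 300 bp after it held 69. In control lineage epithelial cells its 3 windows together held 45, 34 and 41 counts in the 3 pools, and in vinclozolin lineage epithelial cells 13, 37 and 29. In control lineage stromal cells they held 25, 49 and 47 counts, and in vinclozolin lineage stromal cells 18, 22 and 14. The vinclozolin lineage stromal pools were thus low although 2 of them were the deepest of all 12.

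In CPM, the DMR stood at 0.611 ± 0.163 (SD, n = 3) in control and at 0.185 ± 0.0184 in vinclozolin lineage stromal cells, a ratio of 3.31. The control pools had 0.438, 0.761 and 0.636 CPM and the vinclozolin pools 0.164, 0.196 and 0.195 CPM, with no overlap and with the smallest spread of the 4 groups in the latter. This contrast chose the locus, so the values are a description only. The windows inside the DMR differed in how far apart the lineages were. At chr13:26753401-26753500 the stromal counts were 6, 13 and 13 in the control and 4, 6 and 3 in the vinclozolin lineage, a fitted log2 fold change of -1.86 (SE 0.455). At chr13:26753501-26753600, the center and the highest of the windows, they were 9, 22 and 24 against 10, 13 and 11, with a log2 fold change of -1.27 (SE 0.314). At chr13:26753601-26753700 they were 10, 14 and 10 against 4, 3 and 0, with -2.80 (SE 0.516). The neighboring windows outside the limits of the DMR held few counts. The window before it had 1, 1 and 0 counts in the control lineage and 0 in each vinclozolin pool, and the window after it had 2, 6 and 0 against 3, 1 and 0.

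**Figure D2:**
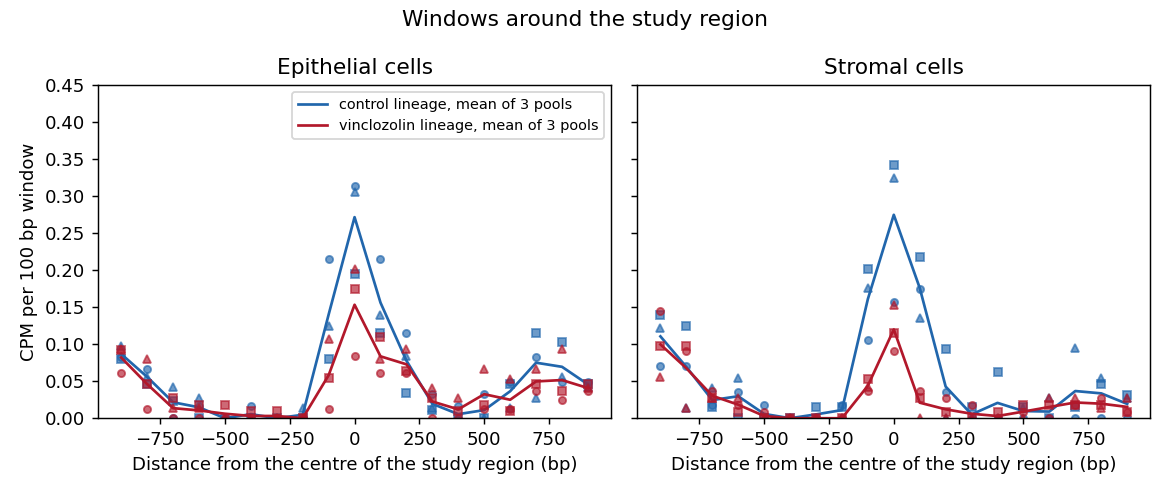
Level in CPM of each 100 bp window (vertical axis) against its distance in bp from the center of the DMR (horizontal axis), with a circle, square and triangle for pools 1, 2 and 3 and lines for the mean of 3 pools, in blue for the control and in red for the vinclozolin lineage. The peak of 3 windows is lower in the vinclozolin lineage in stromal cells, the contrast that chose it, and has overlapping symbols in the epithelial cells at the window in its center.

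Epithelial cells allow the same lineage comparison at the DMR in counts that the choice of the locus did not use. They come from the same combined tissue of the same rats as the stromal cells, however, so the groups of rats are not new ones. There the level was 0.568 ± 0.176 CPM (SD, n = 3) in the control and 0.295 ± 0.122 CPM in the vinclozolin lineage. The control pools had 0.743, 0.390 and 0.570 CPM and the vinclozolin pools 0.157, 0.339 and 0.389 CPM. The 3 vinclozolin values thus lay below the 3 control values, but the gap between the nearest pools was 0.389 against 0.390 CPM, and an exact two-sided permutation test gave p = 0.1, the smallest that 3 pools against 3 allow. With TMM-scaled library sizes the order of the nearest pools turned, with 0.393 CPM in the highest vinclozolin and 0.387 CPM in the lowest control pool, and the exact permutation p was 0.2.

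Window by window, the epithelial log2 fold changes of the vinclozolin over the control lineage were negative at all 3 windows of the DMR and passed the test at none. Genome-wide, the edgeR quasi-likelihood test called 0.0160% of 11518578 windows at a Benjamini-Hochberg adjusted p under 0.1. At the first window of the DMR the counts were 13, 7 and 9 in the control and 1, 6 and 8 in the vinclozolin pools, with a log2 fold change of -1.21 (SE 0.463, edgeR quasi-likelihood adjusted p = 0.551), the smallest p of the locus. At the central window the counts were 19, 17 and 22 against 7, 19 and 15, with -0.78 (SE 0.303, edgeR adjusted p = 0.558). At the last window they were 13, 10 and 10 against 5, 12 and 6, with -0.79 (SE 0.393, edgeR adjusted p = 0.707). The pools overlapped in counts at all 3 windows, and in CPM at the first and the central window. In all, 208 of the 404 windows passed the filter of 10 counts over the 6 epithelial pools, 100 with a higher and 108 with a lower level in the vinclozolin lineage, and their median log2 fold change was -0.03, against 0.01 over all windows tested. None was called by the edgeR quasi-likelihood test or by the edgeR exact test, and 8 (3.85%) had an unadjusted quasi-likelihood p under 0.05, against 7.04% of windows in the genome. By the exact test 6 of the 208 windows had such a p, against 652949 of 11518578 in the genome. DESeq2, fitted on chromosome 13 alone, called none of the 477712 windows it tested, so its 0 calls at the locus carry no weight. By DESeq2 0 of the 208 windows had such a p, against 6080 of the 477712. Whether the lineage difference at the DMR differs between epithelial and stromal cells was not tested.

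The wider locus did not differ detectably between the lineages in epithelial cells. Summed over the 404 windows, control pools had 17.0, 18.2 and 18.2 CPM and vinclozolin pools 16.9, 17.4 and 16.9 CPM, which overlap. The means were 17.8 ± 0.683 and 17.1 ± 0.264 CPM (SD, n = 3). The log2 fold change was -0.06 (SE 0.055, edgeR quasi-likelihood adjusted p = 0.694 over 68626 stretches, of which 1.41% were called), with a normal 95% interval from -0.17 to 0.05. The exact permutation test over the 6 pools gave p = 0.2.

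Of the 39 bins, 37 could be tested in epithelial cells, with 18 higher and 19 lower in the vinclozolin lineage (median log2 fold change -0.0036, against 0.0071 over all bins tested) and none called, in a genome where 0.0250% of bins were called by the edgeR quasi-likelihood test. An unadjusted p under 0.05 was reached by 3 bins (8.11%), against 6.62% in the genome. This count was 0 with bins shifted by 500 bp and 1 without vinclozolin pool 1 or pool 2. The edgeR exact test also called 0, with 4 of the 37 bins at such a p, against 222765 of 2514885 in the genome. DESeq2 had 3, against 6080 of 103050 bins on chromosome 13. It gave an adjusted p for 4 of the 37 bins only and for neither of the bins named next, so its count of 0 calls says little. The smallest p fell on chr13:26747001-26748000, where control pools held 29, 22 and 45 counts and vinclozolin pools 14, 24 and 26, with overlap in the counts, and the log2 fold change was -0.87 (SE 0.372, edgeR adjusted p = 0.681), or -0.56 without control pool 3. The bin that holds the DMR, chr13:26753001-26754000, had 56, 38 and 49 against 18, 52 and 41 counts and a log2 fold change of -0.70 (SE 0.302, edgeR adjusted p = 0.690), or -0.40 without either control pool 1 or vinclozolin pool 1. The pools of the lineages separated in 1 bin, higher in the vinclozolin lineage (6.51% of bins in the genome), and in 0 bins the other way (5.80%). The bin that separated was chr13:26759001-26760000, among the lowest of the locus, with 0, 0 and 3 counts in the control and 8, 10 and 5 in the vinclozolin pools. It met the filter of 10 counts only through the vinclozolin pools, where it is higher, so nothing is read from its separation. At the highest bin of the locus the epithelial log2 fold change was -0.12 with a 95% interval from -0.39 to 0.15.

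**Figure D3:**
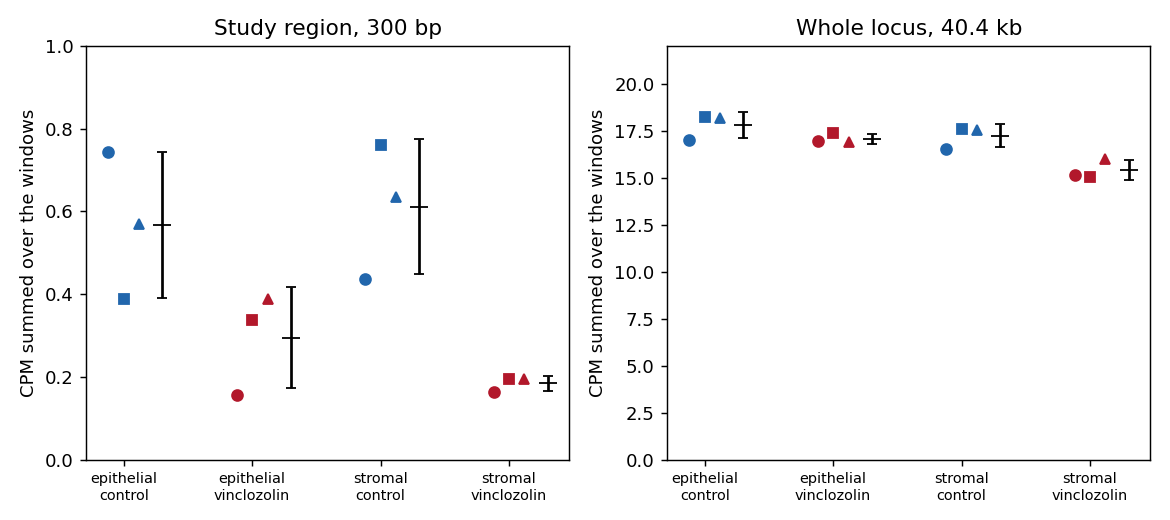
CPM summed over the 3 windows of the DMR (left) and over the 404 windows of the locus (right) in each group, with a circle, square and triangle for pools 1, 2 and 3 and, beside them, the mean with 1 SD on either side. At the DMR both vinclozolin lineage groups lie lower than their control groups, with the epithelial pools meeting at 0.39 CPM, and over the locus the vinclozolin lineage stromal pools have the lowest values.

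In stromal cells the description of the whole locus, with the DMR included unless stated, was as follows. Summed over the 404 windows the control pools had 16.5, 17.6 and 17.6 CPM (17.2 ± 0.600) and the vinclozolin pools 15.1, 15.0 and 15.99 CPM (15.4 ± 0.528), with no overlap, as in 13.4% of stretches of the genome in this direction, and a log2 fold change of -0.17 (SE 0.057). Without the 3 windows of the DMR it was -0.14. Such differences were frequent in stromal cells, since 21.0% of the 68626 stretches of the genome were called by the edgeR quasi-likelihood test in this contrast, and nothing is read from them for Bcl2. The shallower of the vinclozolin lineage stromal pools had the value nearest to the controls, and the pools with 15.1 and 15.0 CPM were the deepest of all 12. In the vinclozolin lineage epithelial cells the deepest pool had the highest value of its group. In both control lineage groups the shallowest pool had the lowest value, 17.0 CPM in epithelial and 16.5 CPM in stromal cells. The part of depth in the stromal values was not tested. The study sequenced several libraries per lane and does not state which pools shared a lane, so a part of the lane was not tested either. Of the 37 bins tested in stromal cells, 18 were higher and 19 lower in the vinclozolin lineage, with a median log2 fold change of -0.20, against 0.03 over all bins tested. The pools separated with the vinclozolin lineage lower in 6 bins (6.74% of bins in the genome) and higher in 1 (8.63%). Of these, the bin of the DMR had the lowest log2 fold change of the locus, -1.74 (SE 0.323), with 29, 62 and 47 counts in the control and 24, 24 and 14 in the vinclozolin pools. The highest bin had -0.20 (SE 0.125).

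The order of the groups over the whole locus was control epithelial (17.8 CPM), control stromal (17.2), vinclozolin epithelial (17.1) and vinclozolin stromal cells (15.4). The neighbors among the first 3 of these overlapped in their pools, and the vinclozolin lineage stromal pools lay below all 9 other pools. At the DMR the order was control stromal (0.611 CPM), control epithelial (0.568), vinclozolin epithelial (0.295) and vinclozolin stromal cells (0.185), and the neighbors overlapped in their pools except control and vinclozolin lineage epithelial cells, whose nearest pools had 0.390 and 0.389 CPM.

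Between the cell types of the control lineage no difference was called at the locus. The stromal counts at the DMR had chosen the locus, so the test was read without its 3 windows, a choice made after seeing the data. The log2 ratio of epithelial over stromal cells was then 0.05 (SE 0.062, edgeR quasi-likelihood adjusted p = 0.875), with a 95% interval from -0.08 to 0.17, and the exact permutation test gave p = 0.3. That permutation took the pools as unpaired, although epithelial and stromal pools of a lineage come from the same groups of rats. Pools were matched here by the number in their titles, which the study does not tie to its groups of rats. By number, epithelial against stromal pools had 16.3 against 16.1, 17.8 against 16.8 and 17.6 against 16.9 CPM. The epithelial pool was thus higher each time, which was not tested as pairs. Of the stretches of the genome 0.358% were called in this comparison. With the 3 windows the log2 ratio was 0.04, and 0.0094 without stromal pool 1. Of 36 bins tested, 17 were higher and 19 lower in epithelial cells (median log2 ratio -0.0067, against 0.0074 over all bins tested), none was called (0.0205% in the genome) and 3 (8.33%) had an unadjusted edgeR p under 0.05, against 6.48% in the genome. This count was 0 with bins shifted by 500 bp and 2 without epithelial pool 1 or 2 or stromal pool 2 or 3. The edgeR exact test called 0 as well, with 4 such bins, against 216746 of 2473605 in the genome. DESeq2 called 0 of the 23 bins to which it gave an adjusted p. It had 3 such bins among the 36, against 5617 of 101247 on chromosome 13. The smallest p fell on chr13:26750001-26751000, where epithelial pools held 29, 37 and 20 counts and stromal pools 15, 7 and 10, with a log2 ratio of 1.23 (SE 0.449, edgeR adjusted p = 0.591). The control lineage pools separated with epithelial cells higher in this bin alone of the 36 (6.25% of bins in the genome), and with epithelial cells lower in 0 bins (5.75%). At the bin of the DMR the log2 ratio was -0.07, a description only, since its stromal pools are among those that chose the locus.

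In the vinclozolin lineage the locus had a higher level in epithelial than in stromal cells in every pool, a difference that did not pass the test once the DMR was left out. The epithelial pools had 16.9, 17.4 and 16.9 CPM and the stromal pools 15.1, 15.0 and 15.99, with no overlap, as in 11.6% of stretches of the genome in this direction. The log2 ratio over all 404 windows was 0.15 (SE 0.053). It is a description, since the low stromal counts of these pools at the DMR chose the locus. Without the 3 windows of the DMR, a choice made after seeing the data, the log2 ratio was 0.14 (SE 0.053, edgeR quasi-likelihood adjusted p = 0.101), with a 95% interval from 0.04 to 0.25, against a limit of 0.1 that 8.45% of the stretches of the genome passed. The exact permutation test over these pools gave p = 0.1, the smallest that 3 pools against 3 allow. It took the pools as unpaired, although epithelial and stromal pools of a lineage come from the same groups of rats. A paired permutation was not run. The control and vinclozolin lineage ratios come from separate pools, and their difference was not tested.

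Bin by bin, 25 of 37 bins were higher and 12 lower in epithelial than in stromal cells of the vinclozolin lineage, with a median log2 ratio of 0.38, against -0.01 over all bins tested. None was called by the edgeR quasi-likelihood test (0.407% of bins were called in the genome), and DESeq2 called none of the 25 bins to which it gave an adjusted p. An unadjusted quasi-likelihood p under 0.05 was reached by 11 of the 37 bins (29.7%), against 8.93% in the genome. With DESeq2, 9 bins had an unadjusted p under 0.05, against 7613 of 104340 on chromosome 13. The bin of the DMR, where the stromal counts chose the locus, is among the 11. The 37 bins lie side by side and come from the same pools, so they are not independent and their count is a description. The count of 11 fell to 4 without epithelial pool 2 of this lineage, in a fit where 197912 of 2508512 bins of the genome had such a p. It fell to 6 without stromal pool 2, where 186207 of 2507074 had. The smallest p was that of chr13:26756001-26757000, whose center lay 2.95 kb after that of the DMR. Its epithelial pools held 50, 49 and 45 counts and its stromal pools 28, 39 and 17, with 0.552 ± 0.0898 and 0.279 ± 0.0594 CPM (SD, n = 3) and a log2 ratio of 0.95 (SE 0.297, edgeR quasi-likelihood adjusted p = 0.191). The edgeR exact test called this bin alone of the 37, with an adjusted p = 0.0628, but called 1.84% of bins in the genome, so that 1 call is near the background.

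The differences by cell type did not all run the same way along the locus. The pools of the vinclozolin lineage separated with epithelial cells higher in 8 of the 37 bins (6.86% of bins in the genome) and lower in 4 (7.36%). Of those lower in epithelial cells, 3 followed each other from 26765001 to 26768000, beyond the DMR. At chr13:26765001-26766000 the levels were 0.158 ± 0.0989 CPM in epithelial and 0.322 ± 0.0310 CPM in stromal cells (SD, n = 3), a log2 ratio of -1.04 (SE 0.408, edgeR adjusted p = 0.382). The bin of the DMR had a log2 ratio of 0.98 (SE 0.351), given without a test because the low stromal counts there chose the locus.

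**Figure D4:**
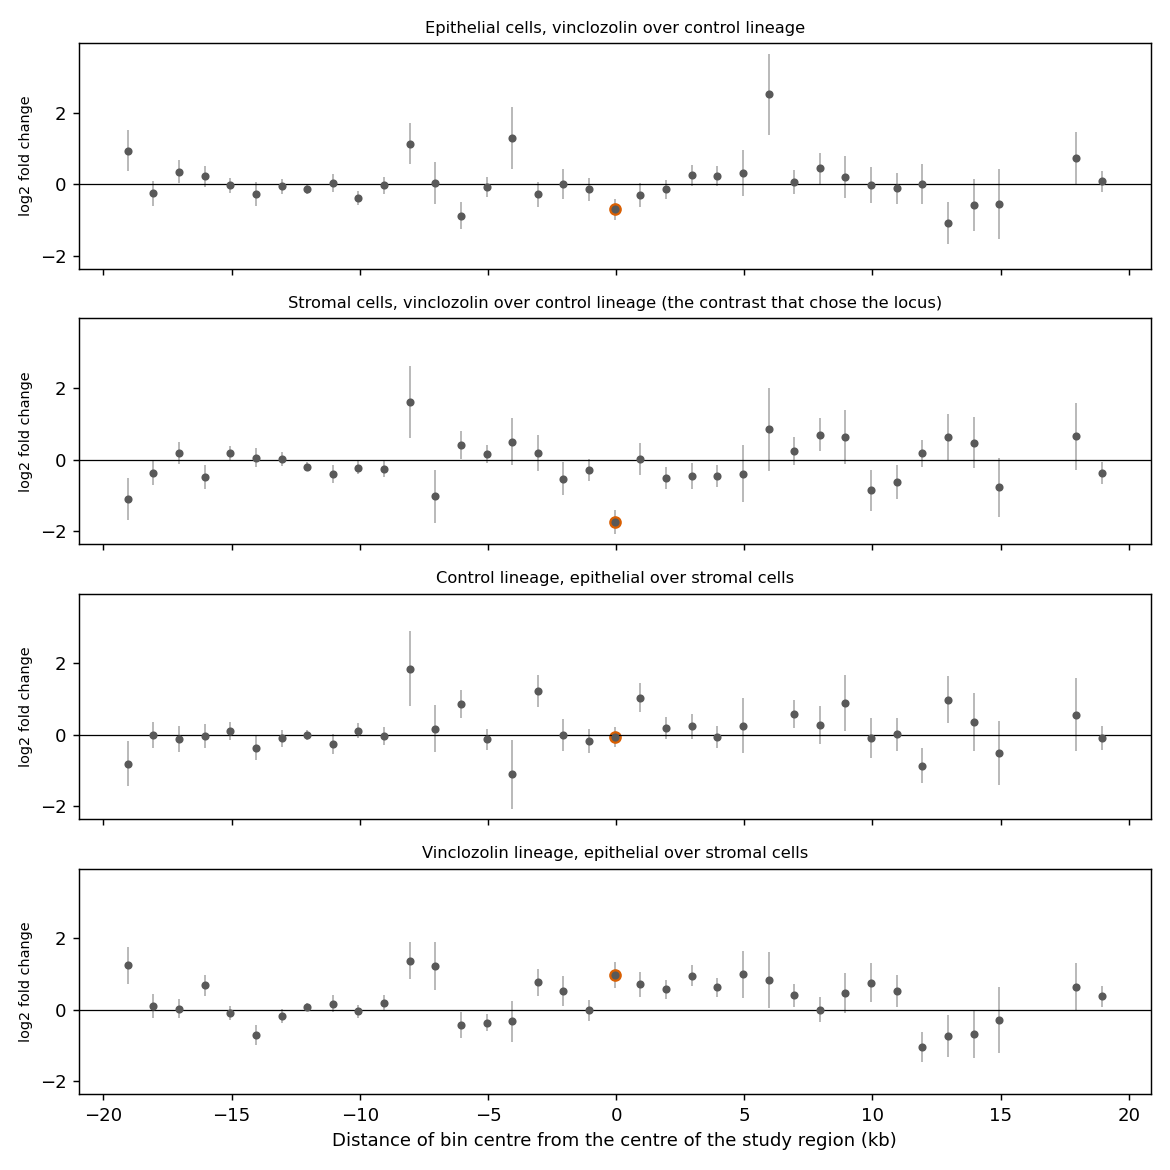
Log2 fold change of each tested 1 kb bin with 1 standard error on either side (vertical axis) against its distance in kb from the center of the DMR (horizontal axis), for the lineage comparison in each cell type and the cell type comparison in each lineage. The bin of the DMR (orange) lies at -1.74 in the stromal lineage comparison that chose it, at -0.70 in epithelial cells, and at -0.07 and 0.98 between the cell types of the control and the vinclozolin lineage.

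The windows elsewhere in the genome whose levels over the 12 pools correlated most with those of the last window of the DMR were sought among 6945871 windows. That window was taken because it had the smallest p of the DMR windows in the stromal lineage fit, the comparison that chose the locus. An r over 0.9 was reached by 2917 windows, those of the locus included. The measure was Pearson r of log2(CPM + 0.1) over the 12 pools, which does not compare the height of levels or the size of differences. It is given as a description, since the 5 windows are the highest of a very large number. They also share the depth of each library with the DMR. They were chr4:32482501-32482600 (r = 0.989), chr19:18323801-18323900 (0.980), chr1:93990401-93990500 (0.979), chr14:114452901-114453000 (0.978) and chr1:40663301-40663400 (0.976). The first of these held between 16 and 41 counts per pool, with 32, 30 and 16 in the vinclozolin lineage stromal pools and 24, 29 and 29 in the control lineage stromal pools. These counts are not scaled to depth, so the lineages cannot be compared from them directly. The window counts of the genome summed to 110076147, 112304623 and 71843106 in these vinclozolin pools. In these control pools they summed to 57135700, 64361896 and 73948807.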

How the data were processed

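For each of the 12 pools the authors deposited the number of reads per 100 bp window as counts without normalization, beside RPKM values that the authors scaled to window length and library size. The counts were analysed, and RPKM served only to recover the number of reads per pool. The authors trimmed the reads with Trimmomatic, mapped them to Rnor_6.0 with Bowtie2, sorted them with SAMtools and counted them with MEDIPS. Versions and the treatment of duplicate reads are not given in the sources used here, and no window exceeds 300 counts in any pool, so the signal of the highest windows may be limited. Deposited group means and the columns of the authors' own edgeR comparison (fold change, mean level and p-values) were not used.

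Counts of windows, of 1 kb bins and of stretches as long as the locus were fitted over the whole genome with edgeR 4.0.16 in R 4.3.3 (quasi-likelihood test, TMM factors, 10 or more counts in the 6 pools compared, Benjamini-Hochberg adjustment, limit 0.1). The edgeR fits of the epithelial lineage comparison alone were tested on simulated counts, independent between windows, with large changes in features of many counts. Most windows of the locus hold few counts, so the simulation does not show how the fits do there. Each SE is the absolute log2 fold change divided by the square root of the quasi-likelihood F statistic. Where a comparison is given as a description, its SE is not to be read as a test. DESeq2 1.42.0 was an alternative. Control and vinclozolin lineage were compared in each cell type, and epithelial with stromal cells in each lineage. Epithelial and stromal pools of a lineage come from the same groups of rats, and were matched by the number in their titles. The study does not state this match. In the control lineage, deviations from the group means correlated by -0.020 to 0.0026 between pools of the same number. Between pools of other numbers they correlated by -0.0059 to 0.017. In the vinclozolin lineage the ranges were -0.025 to 0.0050 and -0.016 to 0.028. The match by number is thus not seen in the counts. The block by pool number was an alternative. The members and lists were chosen with earlier results of these data known. Named bins were the 3 highest and 3 lowest, the bin of the DMR and the smallest p of each comparison, and other bins named were picked after their values were seen. The list of 22 other genes of the Bcl-2 pathway, CpG numbers and RNA were not analysed here.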

Additional observations from a re-analysis of the deposited data

How the results depend on the processing

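Over 18 results and 223 alternatives, 212 were scored as kept. For fold changes this means the same direction and, where the result has a limit, the same side of it. For counts of called bins or windows, which have no direction, it means that the count stayed at 0. Fits in which DESeq2 gave no adjusted p were scored as not called. The DESeq2 window fits, which carry no weight, are included. The 212 therefore hold alternatives that could not have changed a call. For the stromal lineage results, which have no test, a shift below 1 SD between pools counted as kept. Of the rest, 6 were fits of the whole locus between the cell types of the vinclozolin lineage that no longer passed the limit of 0.1. These include the fit without the 3 windows of the DMR. No test is read from the others, since the stromal counts chose the locus. The count of 0 called bins between the cell types of the vinclozolin lineage became 1 with the edgeR exact test (the bin at 26756001, log2 ratio 0.95, adjusted p = 0.0628, in a test that called 1.84% of bins in the genome) and 1 with bins shifted by 500 bp (a bin that holds part of the DMR, whose low stromal counts chose the locus, so that this call carries no weight). The cause of the former was not tested. The whole locus in that comparison is a description, since its stromal counts chose it. Its log2 ratio of 0.15 was 0.15 with DESeq2, 0.14 without the 3 windows of the DMR and 0.13 to 0.18 over the fits that left out a pool. The bin of the DMR between the cell types of the control lineage turned from -0.07 to 0.18 without epithelial control pool 2 and to 0.22 without stromal control pool 2, in a range from -0.36 to 0.22 over the fits that left out a pool. With the replicate block by pool number, the whole locus kept its values of -0.06 between lineages in epithelial cells and of 0.04 and 0.15 between the cell types, and it changed no call among the results it was run on. It was not run for the locus without the 3 windows of the DMR. The numbers link control and vinclozolin pools only as names. With a pool left out, the epithelial log2 fold change of the whole locus ranged from -0.08 to -0.05, of the bins at 26753001 and 26747001 from -0.95 to -0.40 and from -1.19 to -0.56, and of the DMR windows from -1.83 to -0.78, from -1.01 to -0.51 and from -1.08 to -0.52, with edgeR adjusted p between 0.429 and 0.888 for these windows. The control lineage log2 ratio of the whole locus ranged from 0.0094 to 0.063. The counts of called bins and windows stayed at 0 in these fits. Other settings for the Bcl-2 family genes were not run. Depth limits single windows most, of which 196 of 404 were not tested in epithelial cells.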

Other observations

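At the far end of the locus, 23 windows in a row, chr13:26768801-26771100, each held at most 3 counts over the 12 pools. This stretch was picked after its values were seen. It held 0 counts in all 6 control lineage pools, and in the vinclozolin lineage 5, 3 and 0 counts in the epithelial and 4, 3 and 0 in the stromal pools. The 3 deepest pools of the 12 were among those with counts, and the part of depth in this result was not tested.

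A trough of few counts in vinclozolin lineage stromal cells, also picked after its values were seen, lay further along the locus than the DMR. At the window chr13:26764001-26764100 the counts were 3, 4 and 9 in control and 2, 0 and 1 in vinclozolin lineage stromal pools, and 2, 7 and 4 against 4, 6 and 2 in epithelial pools. The stromal log2 fold change there was -2.83 (SE 0.785) in the fit that is given without a test, since the locus was chosen on stromal cells.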
